A study of Homo sapiens with 9 samples.

Results

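The genes described here make and recycle glutathione, run the thioredoxin system, supply NADPH to both, or remove reactive oxygen. They were chosen by symbol, as every probe set that the array's annotation assigns to GCLC, GCLM, TXN, TXNRD1, NQO1, PGD, PRDX1, SOD1, SOD2 or GPX4. Of these 10 genes, 9 had 1 probe set each that carries their symbol alone, out of 8746 probe sets for 7713 genes. The only probe set listed for SOD2, the mitochondrial manganese superoxide dismutase, is also assigned to another gene, so no value is given for SOD2. All 9 probe sets lay above the intensity filter and were among the 5830 tested. RNA came from LAN-5, a single established human neuroblastoma line, hybridised to Affymetrix 1-colour arrays. There were 3 arrays of untreated cells, which received culture medium alone, 3 of cells given the calcium-binding protein S100B at 0.5 nM and 3 of cells given it at 5 µM. The 3 groups share the line, the medium and the plating density, and the treatment time is not given in the sources used here.

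Glutathione is the main small thiol of the cell, and glutamate-cysteine ligase, a dimer of the GCLC and GCLM proteins, sets the rate at which it is made. Thioredoxin and glutathione pass electrons from NADPH to peroxidases, which remove hydrogen peroxide and lipid peroxides. Many of these genes are activated by the transcription factor NRF2, which electrophiles and oxidants release from its inhibitor KEAP1, and neurons, which consume much oxygen, are sensitive to the loss of glutathione.

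NRF2 acts at the antioxidant response element, whose core is TGACNNNGC. RefSeq promoter windows (build GRCh38.p14, 250 bases before to 50 after each annotated start) were found for 8 of the 10 genes, all but PRDX1 and SOD1. The core was searched on both strands, and 13.3% of all 35116 windows held it. It stood in 4 of the 14 windows of the 8 genes, in 3 genes: GCLM, PGD and TXNRD1, at both of its starts. These stretches are shown because they tell apart the genes whose promoter windows carry the letters from those that do not, while the expression values below come from both kinds. They are written along the gene's strand, with the core in capitals and read on the opposite strand in all but the first TXNRD1 start. They lie at chr1:93909436-93909484 (minus strand) for GCLM, chr12:104215660-104215708 and chr12:104286910-104286958 (plus strand) for TXNRD1, and chr1:10398843-10398891 (plus strand) for PGD.
GCLM: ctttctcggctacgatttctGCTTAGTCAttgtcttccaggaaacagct
TXNRD1, first start: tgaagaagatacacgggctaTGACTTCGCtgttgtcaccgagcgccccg
TXNRD1, the other start: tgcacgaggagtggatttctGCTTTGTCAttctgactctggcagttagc
PGD: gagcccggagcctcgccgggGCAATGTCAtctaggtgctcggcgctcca
The matched letters began 34 bases before the start in GCLM, 99 and 102 bases before it at the 2 TXNRD1 starts, and 201 bases before it in PGD. The first TXNRD1 window held the core again 8 bases before the start and overlapping it. The windows of GCLC, TXN, NQO1, GPX4 and SOD2 did not hold these letters, which says nothing about elements outside the window.

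The 9 arrays were closely alike, with correlations of 0.993 to 0.997 across tested probe sets within groups and 0.994 to 0.997 between groups. The labelled cell type was checked against its markers: 10 of the 11 measured neuroblast and sympathetic neuron markers lay above the filter, among them PHOX2A, HAND2, GATA3, DBH and MYCN, and TH, the tyrosine hydroxylase of catecholamine synthesis, lay below it. The counts above the filter were 4 of 7 for Schwann and mesenchymal markers and 2 of 4 for astrocyte markers. They were 1 of 3 for leukocyte and 2 of 5 for epithelial markers. PTPRC, EPCAM and GFAP lay below it, and SOX10, VIM, COL1A2, PDGFRB, ALDH1L1, SLC1A3, CD3E, KRT8 and KRT18 above it. Of all 8746 probe sets, 5830 lay above the filter, so a marker above it does not by itself tell the cell type. RNA was taken from whole cultures, so a change in the mix of cells and a change per cell cannot be told apart. Values are log2 expression, so 1 unit is a doubling, and a gene counts as changed at a Benjamini-Hochberg adjusted p under 0.05 in limma over all 5830 probe sets. With 3 arrays on each side, the smallest p that an exact permutation test allows is 0.1.

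None of the 9 antioxidant genes passed the test at either dose of S100B. At 5 µM against untreated cells, 0 of 9 passed limma's adjusted threshold and 0 of 9 had an unadjusted p under 0.05, where 0.292% and 6.84% of all probe sets did. At 0.5 nM, 0 of 9 passed and 1 had an unadjusted p under 0.05, against 0% and 3.29% of all. Between the doses, 0 of 9 passed and 1 had an unadjusted p under 0.05, against 0.257% and 4.65%. In limma's F test of any difference among the 3 groups, 0 of 9 passed (smallest adjusted p = 0.984), where 0.24% of all probe sets did.

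**Figure D1:**
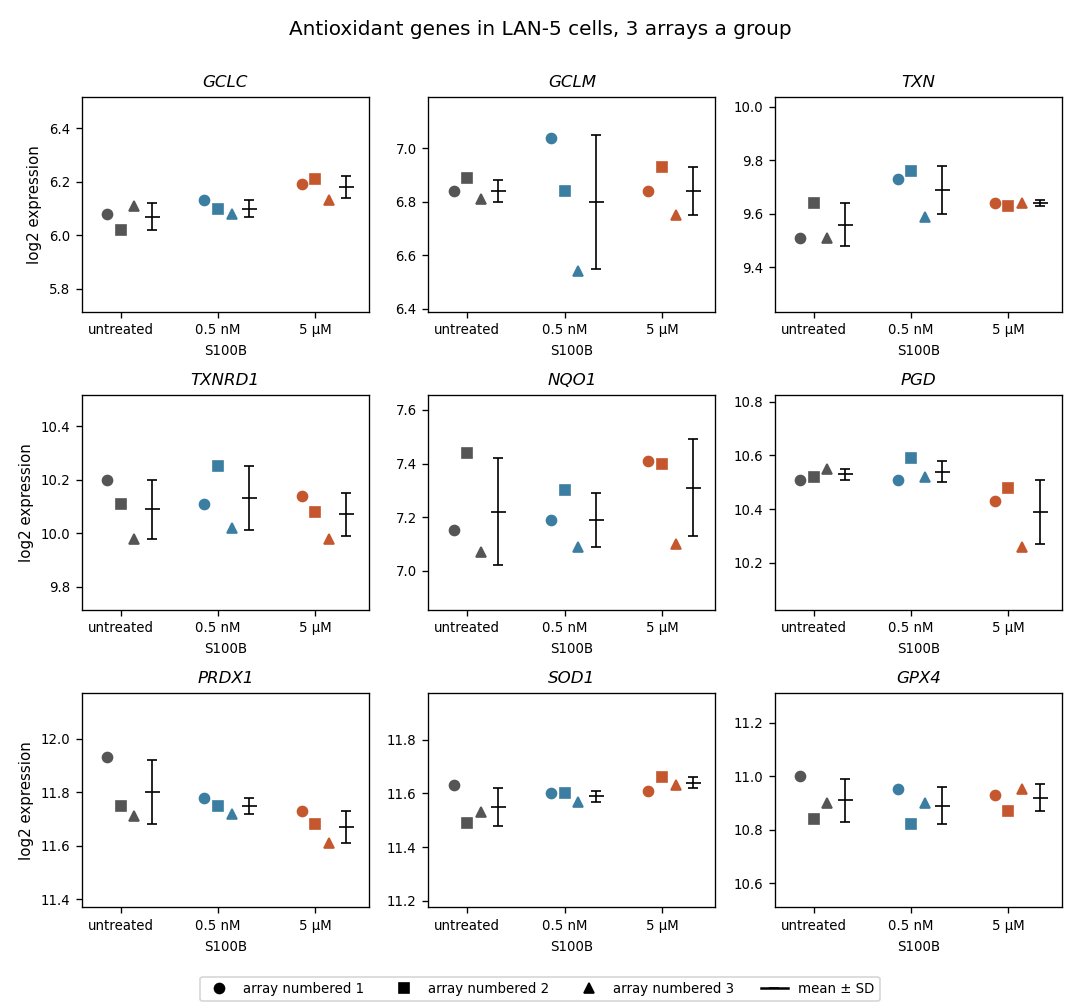
Log2 expression of the 9 antioxidant genes on each of the 9 arrays, 1 panel a gene, with every vertical axis spanning the same log2 range; symbols mark the replicate number and black bars the mean ± SD of 3 arrays. The groups overlap in most panels, with GCLC higher and PGD lower at 5 µM than on any untreated array.

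The catalytic subunit of glutamate-cysteine ligase, GCLC, read 6.08, 6.02 and 6.11 on the untreated arrays numbered 1 to 3, 6.13, 6.10 and 6.08 at 0.5 nM, and 6.19, 6.21 and 6.13 at 5 µM. All 3 arrays at 5 µM lay above all 6 others, though the lowest of them met the highest at 0.5 nM to 2 decimals. GCLC stood at 6.07 ± 0.05 (SD, n = 3) untreated and 6.18 ± 0.04 (SD, n = 3) at 5 µM, a difference of 0.11 ± 0.05 (SE) with a 95% interval of -0.0024 to 0.23, or 99.8% to 117% of the untreated level (limma's adjusted p = 0.74). The probe set is dim, close to the filter at a mean of 5.95, where fold changes can be understated.

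GCLM, the modifier subunit that lowers the enzyme's sensitivity to feedback by glutathione, read 6.84, 6.89 and 6.81 untreated, 7.04, 6.84 and 6.54 at 0.5 nM and 6.84, 6.93 and 6.75 at 5 µM. The nanomolar arrays spanned both the highest and the lowest of the 9 values, and the groups overlapped. The difference was -0.0051 ± 0.11 (SE) at 5 µM (limma's adjusted p = 0.996) and -0.04 ± 0.11 at 0.5 nM, with 95% intervals of -0.24 to 0.23 and -0.28 to 0.19. Both subunits of the ligase were thus measured, and changes of 2-fold in the measured signal lay outside the interval of either in every comparison. For GCLC, whose probe set is dim, the interval does not cover a change that the signal understates.

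Thioredoxin itself, TXN, a small protein that reduces disulfides in peroxiredoxins and other targets, read 9.51, 9.64 and 9.51 untreated, 9.73, 9.76 and 9.59 at 0.5 nM and 9.64, 9.63 and 9.64 at 5 µM. At 0.5 nM, 2 of 3 arrays lay above all untreated arrays. TXN was the 1 gene of the 9 with an unadjusted p under 0.05 at that dose: 9.56 ± 0.08 (SD, n = 3) untreated and 9.69 ± 0.09 at 0.5 nM, a difference of 0.14 ± 0.06 (SE) with a 95% interval of 0.0015 to 0.27, which did not pass (limma's adjusted p = 0.9999). At 5 µM the difference was 0.08 (interval -0.05 to 0.22), and between the doses -0.05 (-0.19 to 0.08), so TXN did not differ between the doses beyond the spread. By its suffix, the TXN probe set may detect several transcripts.

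Thioredoxin reductase TXNRD1, the selenoprotein that recharges thioredoxin with NADPH, read 10.20, 10.11 and 9.98 untreated, 10.11, 10.25 and 10.02 at 0.5 nM and 10.14, 10.08 and 9.98 at 5 µM. The 3 groups covered nearly the same range. Its differences were -0.03 ± 0.08 (SE) at 5 µM and 0.03 ± 0.08 at 0.5 nM (limma's adjusted p = 0.974 and 0.9999), with intervals of -0.20 to 0.15 and -0.14 to 0.21.

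Peroxiredoxin PRDX1, an abundant peroxidase that thioredoxin reduces, read 11.93, 11.75 and 11.71 untreated, 11.78, 11.75 and 11.72 at 0.5 nM and 11.73, 11.68 and 11.61 at 5 µM. At 5 µM, 2 of 3 arrays lay below all untreated arrays, and untreated array 1 was the highest of the 9. The difference at 5 µM was -0.13 ± 0.07 (SE), or 91.5% of the untreated level with an interval of 82.8% to 101% (limma's adjusted p = 0.753), and -0.06 without untreated array 1. That at 0.5 nM was -0.05 (interval -0.19 to 0.10).

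PGD, the phosphogluconate dehydrogenase that makes NADPH in the pentose phosphate pathway, had the largest difference of the 9 genes at 5 µM with all arrays included. It read 10.51, 10.52 and 10.55 untreated, 10.51, 10.59 and 10.52 at 0.5 nM, and 10.43, 10.48 and 10.26 at 5 µM. All 3 arrays at 5 µM lay below all 6 others, with the array numbered 3 lowest. From 10.53 ± 0.02 (SD, n = 3) to 10.39 ± 0.12 the difference was -0.14 ± 0.06 (SE), with an interval of -0.28 to 0.0051 (limma's adjusted p = 0.74). Without 5 µM array 3 it was -0.07, smaller than the 0.13 of GCLC and the 0.19 of NQO1 in the same fit. Against 0.5 nM it was -0.15 ± 0.06, an interval of -0.29 to -0.01 or 81.5% to 99.2% of the level at 0.5 nM (adjusted p = 0.994), the 1 gene with an unadjusted p under 0.05 between the doses, and -0.09 without 5 µM array 3. Against untreated cells, PGD differed by 0.02 at 0.5 nM (-0.13 to 0.16).

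NQO1, a quinone reductase and one of the best-known NRF2 targets, varied more between arrays than between groups. It read 7.15, 7.44 and 7.07 untreated, 7.19, 7.30 and 7.09 at 0.5 nM and 7.41, 7.40 and 7.10 at 5 µM. Each group held a low value near the lowest of all, and untreated array 2 was the highest. The difference was 0.09 ± 0.11 (SE) at 5 µM (limma's adjusted p = 0.916; 0.01 to 0.20 with 1 array left out) and -0.02 ± 0.11 at 0.5 nM, with intervals of -0.15 to 0.34 and -0.27 to 0.22. Its probe set, like that of TXN, may detect several transcripts.

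SOD1, the copper and zinc superoxide dismutase of the cytosol, read 11.63, 11.49 and 11.53 untreated, 11.60, 11.60 and 11.57 at 0.5 nM and 11.61, 11.66 and 11.63 at 5 µM. All 3 arrays at 5 µM lay above all 3 at 0.5 nM, and 2 of 3 above all untreated arrays. The difference from untreated was 0.09 ± 0.05 (SE) at 5 µM, an interval of 98% to 115% of the untreated level (limma's adjusted p = 0.793), and 0.04 at 0.5 nM (-0.07 to 0.16).

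GPX4, the selenoenzyme that reduces lipid peroxides in membranes and so holds off ferroptosis, read 11.00, 10.84 and 10.90 untreated, 10.95, 10.82 and 10.90 at 0.5 nM and 10.93, 10.87 and 10.95 at 5 µM. The groups overlapped almost entirely. The difference was 0.0016 ± 0.06 (SE) at 5 µM and -0.02 ± 0.06 at 0.5 nM (limma's adjusted p = 0.997 and 0.9999), with intervals of 91.2% to 110% and 89.7% to 108% of the untreated level.

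**Figure D2:**
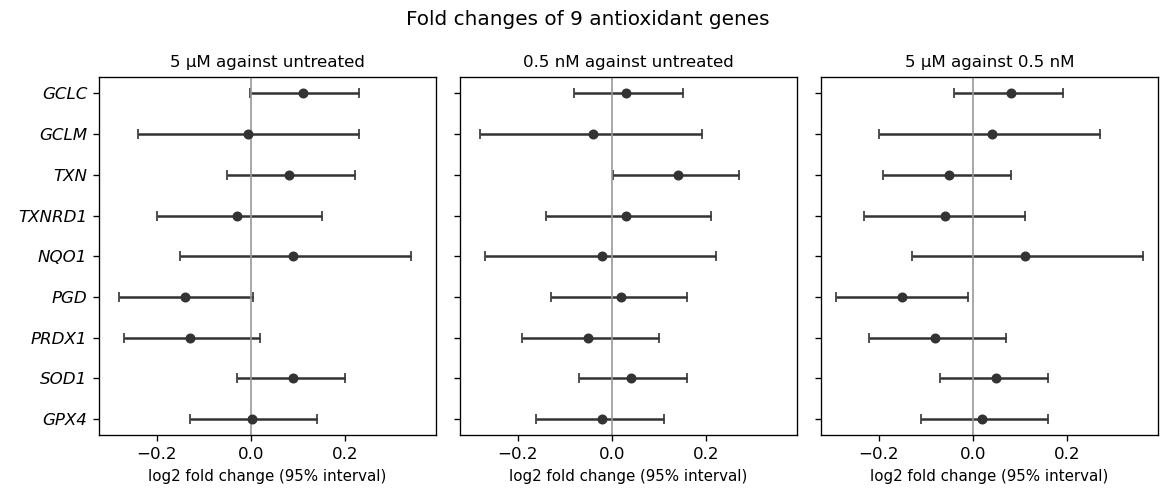
Log2 fold change of each of the 9 genes (points) with its 95% interval from limma (bars) in the 3 comparisons, the first named group minus the other. The intervals run from -0.29 to 0.36 in all, and those of TXN at 0.5 nM and of PGD between the doses leave out 0 before adjustment.

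Side by side, 5 of the 9 genes lay higher and 4 lower in each of the 3 comparisons, which pairwise share their groups; after quantile normalization the split at 5 µM was 6 and 3, and after median centring it was 6 and 3 at 5 µM and 7 and 2 at 0.5 nM. The median of the 9 was 0.0016 at 5 µM, 0.02 at 0.5 nM and 0.02 between the doses, where all tested probe sets had medians of -0.02, -0.02 and -0.0089. The 2 groups did not overlap for 2 of 9 genes at 5 µM (GCLC higher, PGD lower), against 12.3% of all probe sets, for 0 of 9 at 0.5 nM, against 6.98%, and for 3 of 9 between the doses (GCLC and SOD1 higher, PGD lower), against 6.98%. At 5 µM the 3 genes whose promoter windows hold the antioxidant response core printed above stood at -0.0051 (GCLM), -0.03 (TXNRD1) and -0.14 (PGD), and the 4 whose windows do not hold it at 0.11 (GCLC), 0.08 (TXN), 0.09 (NQO1) and 0.0016 (GPX4), given without a test. Of 18 alternative analyses, the sign changed in 5 for GCLM, 2 for TXNRD1 and 5 for GPX4, so the signs do not sort the genes. The windows also leave out elements elsewhere, and NQO1, a known NRF2 target, is among those without the core. The lowest and highest bounds of any interval were 82.5% and 126% of the untreated level at 5 µM and 82.6% and 121% at 0.5 nM. In these arrays an interval reached 0.11 to 0.24 log2 to either side over the 9 genes, with a median of 0.16 over all probe sets.

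The other genes of these pathways were taken as a list of 70 genes, 60 of them measured and 53 tested. At 5 µM, 0 rose and 0 fell by limma's adjusted p, and 1 had an unadjusted p under 0.05. In all, 38 of the 53 lay lower than in untreated cells, with a median of -0.04, where 61.9% of all tested probe sets lay lower. After quantile normalization 28 of 53 lay lower, where 49% of all did, and after median centring 32 of 53, where 50.4% of all did. The groups did not overlap for 7 of 53, all lower, against 9.47% of all probe sets that were lower in this way.

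The smallest p in the list was that of IDH1, the cytosolic isocitrate dehydrogenase, which like PGD makes NADPH. IDH1 read 10.046, 10.003 and 9.998 untreated, 10.269, 10.030 and 10.044 at 0.5 nM and 9.683, 9.777 and 9.768 at 5 µM, so all 3 arrays at 5 µM lay below all 6 others. The difference was -0.27 ± 0.07 (SE, n = 3 per group) against untreated (limma's adjusted p = 0.324) and -0.37 ± 0.07 against 0.5 nM (adjusted p = 0.0772), and neither passed. Under quantile normalization the second passed (adjusted p = 0.0194, range over all alternatives 0.0194 to 0.363). Of the 6 NADPH supply genes tested other than PGD, IDH1 included, 4 lay lower and 2 higher at 5 µM with a median of -0.04 (3 lower and -0.0034 after quantile normalization, 4 lower and -0.01 after median centring), and transketolase TKT was at -0.17 ± 0.11 (adjusted p = 0.82).

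By role at 5 µM, the medians as deposited ran from -0.08 to 0.03, and single genes from -0.27 to 0.12. Among the regulators, NFE2L2, which encodes NRF2, was at -0.12 ± 0.14 (SE) and its inhibitor KEAP1 at 0.02 ± 0.09 (limma's adjusted p = 0.916 and 0.983), and the 6 tested had a median of -0.02 as deposited, -0.00028 after quantile normalization and 0.0062 after median centring. In glutathione making and recycling, 4 genes other than GCLC and GCLM had a median of 0.03, or 0.05 under either other scaling, and glutathione reductase GSR was at -0.24 ± 0.13 (adjusted p = 0.756). Its values were 7.98, 7.88 and 7.82 untreated and 7.76, 7.80 and 7.41 at 5 µM, without overlap, and without 5 µM array 3 the difference was -0.12. HMOX1, the haem oxygenase that NRF2 induces strongly, was at 0.05 ± 0.08 (adjusted p = 0.946). Its probe set, at 6.02 untreated, is dim like that of GCLC and close to the filter at 5.95, where fold changes can be understated.

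Among enzymes, the 12 glutathione transferases had a median of -0.03, or -0.0019 after quantile normalization and -0.01 after median centring, with GSTO1 at -0.10 ± 0.05 (SE; limma's adjusted p = 0.74), or -0.06 after quantile normalization. The 3 glutathione peroxidases other than GPX4 had a median of -0.0024, which turned to 0.03 and 0.02 under those scalings, with GPX3 at -0.09 ± 0.07 (adjusted p = 0.832), or -0.03 and -0.16 without 5 µM arrays 1 and 3. The 7 thioredoxin system genes other than TXN, TXNRD1 and PRDX1 lay lower as deposited, at -0.14 to -0.0047, but 3 of 7 did after quantile normalization and 5 of 7 after median centring, with PRDX6 at -0.14 ± 0.08 (adjusted p = 0.778). All 4 genes of superoxide and peroxide removal other than SOD1, which lay higher, lay lower, also after quantile normalization and median centring. Of all tested probe sets, 61.9% lay lower as deposited, and 49% and 50.4% after those scalings. Among the 4 were PON2, dim at 6.17 untreated, at -0.15 ± 0.11 and catalase CAT at -0.11 ± 0.09 (adjusted p = 0.822 and 0.87). SOD3 read 7.01, 7.03 and 7.01 untreated and 7.05, 6.98 and 6.86 at 5 µM. CCS read 6.44, 6.68 and 6.57 untreated and 6.55, 6.53 and 6.48 at 5 µM, so the groups overlapped for both. By its suffix, the SOD3 probe set may cross-hybridise with other transcripts. The 11 other NRF2 targets had a median of -0.08, or -0.05 under either other scaling. Over all tested probe sets the median was -0.02, or 0.0022 after quantile normalization and -0.00059 after median centring. Without 5 µM array 3, BLVRB moved from -0.08 to 0.0077, while AKR1C1 and EPHX1 were at -0.15 and -0.11. The quinone reductase NQO2, dim at 6.18 untreated and close to the filter at 5.95, was at -0.11 ± 0.07 (adjusted p = 0.793) and at -0.06 without 5 µM array 2.

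**Figure D3:**
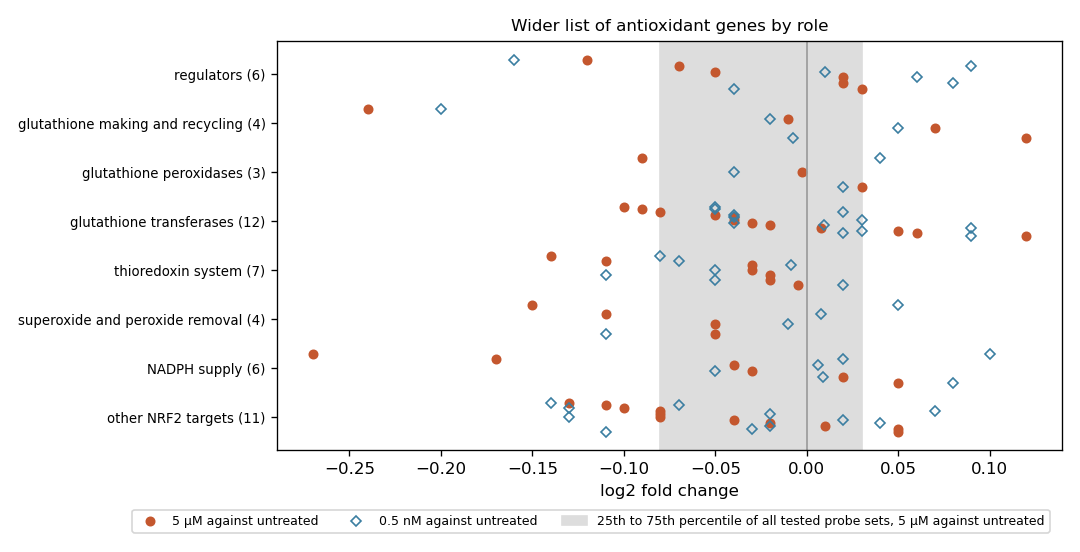
Log2 fold change against untreated cells of the 53 tested genes of the wider list, grouped by role with the number of genes in brackets; filled points are 5 µM, open diamonds 0.5 nM, offsets within a row only separate genes, and the grey band runs from the 25th to the 75th percentile of all tested probe sets at 5 µM, -0.08 to 0.03. IDH1 at -0.27 and GSR at -0.24 are the lowest points at 5 µM, and no gene passed the adjusted threshold.

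At 0.5 nM, 0 of the 53 rose or fell and 0 had an unadjusted p under 0.05, with 25 higher, 28 lower and a median of -0.0087, where 59.1% of all probe sets lay lower. After quantile normalization 24 of 53 lay lower, against 50.1% of all, and after median centring 22 of 53, against 44%. The genes with the smallest p were BLVRB, a biliverdin reductase, at -0.13 ± 0.08 (SE), the epoxide hydrolase EPHX1 at -0.13 ± 0.07 and the aldo-keto reductase AKR1C1 at -0.14 ± 0.09, all with limma's adjusted p = 0.9999. EPHX1 was at -0.05 without untreated array 3, -0.07 without 0.5 nM array 3 and 0.0017 without the arrays numbered 3 of every group, and AKR1C1 at -0.06 and -0.24 without 0.5 nM arrays 1 and 2. Between the doses, 0 of 53 passed and 1, IDH1, had an unadjusted p under 0.05. GPX3 at -0.13 ± 0.07 and PON2 at -0.20 ± 0.11 followed it (adjusted p = 0.994), but PON2 was at -0.07 and -0.32 without 0.5 nM arrays 1 and 3, and GPX3 at -0.07 and -0.20 without 5 µM arrays 1 and 3. By its suffix, the AKR1C1 probe set may cross-hybridise with other transcripts.

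The 9 antioxidant genes differed in how steady they were within groups. The SD left after the group means was 0.16 log2 for both NQO1 and GCLM, above 0.09 for the median probe set, and 0.04 for GCLC and SOD1. In 4 of the 9, GCLM, TXNRD1, NQO1 and PRDX1, the array numbered 3 was the lowest of its group in all 3 groups, against 8.04% of all probe sets. NQO1 on these arrays lay 0.10 to 0.20 below its group mean and TXNRD1 0.09 to 0.12 below. In the wider list 5 of the 53 did so (GSR, PRDX3, PRDX6, MGST3 and CBR1), or 9.43%, which is near the 8.04% of all probe sets. This pattern was noticed after the values were seen and is given without a test. After quantile normalization it held for GCLM and NQO1 only, against 7.84% of all probe sets. After median centring it held for all 4 genes, against 8.15% of all.

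On the arrays numbered 3, the excess of 3' over 5' signal for the beta-actin control, which grows as RNA degrades, was 0.01 to 0.14 log2, against -0.16 to 0.04 on the others, and for the GAPDH control it was 0.30 to 0.40 against 0.20 to 0.37. The part of these values in the pattern was not tested. The labels do not say whether arrays of one number share a culture, a labelling or a day.

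**Figure D4:**
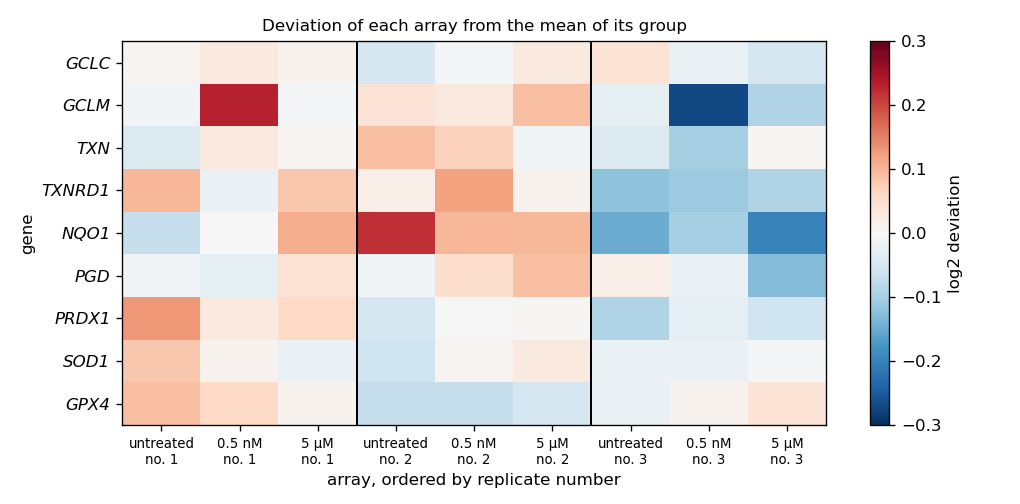
Log2 deviation of each array from the mean of its group for the 9 genes (rows), with arrays (columns) ordered by replicate number and black lines between numbers; red is above and blue below the group mean. TXNRD1 and NQO1 are below their group means on every array numbered 3, by 0.09 to 0.20.

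The deviations of the 9 genes from their group means were only loosely shared. Over 9 arrays the 36 pairwise correlations had a median of 0.28 and ran from -0.59, between NQO1 and GPX4, to 0.74, between TXNRD1 and PRDX1, all from the same arrays. NQO1 had the largest SD over the 9 arrays, though GCLM had the wider range. Most like NQO1 in their values were the prolyl hydroxylase EGLN1 (r = 0.91), the growth factor GDF10 (0.90) and the protease CTSW (0.88). These are the highest correlations over 9 arrays out of all tested genes with 1 symbol, given without a test. By its suffix, the EGLN1 probe set may cross-hybridise with other transcripts.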

How the data were processed

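The deposited values are log2 expression, 1 per probe set and array, and the authors made them with GCRMA, per the submitters' processing notes, which give no version. The log2 scale was read from the values (4.37 to 14.5, array medians 6.60 to 6.64). GCRMA may compress differences near background; scanner intensities were not used here, and the number of arrays limits the precision.

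Of 8793 probe sets, 47 controls were left out, then the dimmest by mean over 9 arrays (2916, at or below 5.95). Of the other 8746, 7840 have 1 symbol, 388 several and 518 none, from the platform annotation updated through RefSeq (7838 matched). Groups came from the titles. The series design calls the arrays biological replicates. limma 3.58.1 in R 4.3.3 (lmFit, eBayes) was fitted to all 9 arrays in 3 groups, and tested on simulated data. Standard errors and 95% intervals are limma's. The named genes are the 9 with values and, of the wider list, the 3 with the smallest p in each comparison and the 1 of each role at 5 µM. Outside this rule TKT, CAT, KEAP1, HMOX1, SOD3, CCS, PRDX3, MGST3 and CBR1 were picked with values in view. The members and lists were chosen with earlier results of these data known. Alternatives were no intensity filter and a stricter one, quantile normalization, median centring, intensity trend with robust moderation, an unmoderated test, only the groups compared, a replicate block, and each array left out in turn.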

Additional observations from a re-analysis of the deposited data

How the results depend on the processing

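Over 18 alternatives, 0 of the 27 fold changes of the 9 antioxidant genes passed the threshold (lowest adjusted p = 0.591, for GCLC without the intensity filter). Of the 27, 15 kept their sign in every alternative run and 12, whose main values lay within 0.06 log2 of 0, did not. GCLC was not tested under the stricter intensity filter. Each gene had 1 probe set, so averaging probe sets gave no value. In the wider list the count between the doses was 1 (IDH1) after quantile normalization and 0 otherwise.

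The counts over all probe sets moved more. At 5 µM, 17 became 1 with an unmoderated test, 7 with only the groups compared, 3 without the arrays numbered 3 of every group (added after seeing the data) and 4 to 17 when 1 array was left out. Between the doses, 15 became 1, 4, 4 and 3 to 14. The 5 µM count was 4 without untreated array 1 or 3, 7 without untreated array 2, and 6, 8 and 9 without 5 µM arrays 1, 2 and 3. The count between the doses was 5, 6 and 3 without 0.5 nM arrays 1, 2 and 3, and 8 and 4 without 5 µM arrays 1 and 2. Leaving out arrays or groups lowers the number of samples; the cause was not otherwise tested. At 0.5 nM the count was 0 in each.

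Arrays of the same number in different groups correlated in their deviations at 0.30 to 0.33 for number 3. For numbers 1 and 2 the correlations were 0.00 to 0.23. Arrays of different numbers in different groups correlated at -0.37 to 0.35. Of the 9 arrays, 3 correlated best with their own number in both other groups, and these were the arrays numbered 3. Numbers 1 and 2 did not do so. The series design names no block, so the main fit did not pair the samples by number. Whether arrays of 1 number share a batch was not tested. With a replicate block, 15, 0 and 15 probe sets passed at 5 µM, at 0.5 nM and between the doses, and 0 of the 9 genes.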
